A study of Mus musculus with 6 samples.

Results

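TAF4b peaks whose centre was annotated to an exon or to the end of a transcript made up 392 of the 7861 peaks called in TAF4b replicate 1. They were chosen by annotation class alone. Each has a deposited class that starts with "exon" or with "TTS", the class given to intervals around a transcription termination site, the annotated end of a transcript. Of the 392 peaks, 161 lay in the first exon of the named transcript, 88 in a later exon and 143 were classed TTS. Another 5756 peaks of the list were classed as promoter peaks around a transcription start site (TSS).

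The peaks come from CUT&RUN, in which an antibody brings a nuclease to an antigen on chromatin and the DNA released around it is sequenced. The cells were male prospermatogonia at E16.5 (the age in embryonic days), labelled as C57BL/6 and wild type for Taf4b. They came from matings of mice homozygous for Oct4-EGFP, a reporter allele driven by a gene active in germ cells (the stock is named B6;129S4-Pou5f1tm2Jae/J), and fetal gonad cells were sorted alive by their green fluorescence. Antibodies against TAF4b, against H3K4me3 and control IgG were used with 2 replicates each, and the 2 IgG libraries were not analysed here. The labels do not say whether replicates came from separate embryos or how many embryos were pooled.

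TAF4b is a cell-type-enriched relative of TAF4 and a subunit of TFIID, the general transcription factor that binds core promoters and helps RNA polymerase II start transcription. It is best known for its role in germ cells of the testis and ovary. H3K4me3 is a histone mark that surrounds active start sites and usually spreads into the first exon and intron. An annotation class names the gene feature under the centre of an interval, so a peak classed as exon or transcript end can also lie close to the start of another transcript or gene.

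The sequences under 8 of the higher-scoring peaks are printed to show what DNA these classes hold: 2 from first exons, 2 from later exons and 4 from transcript ends, the last of which holds none of the motifs within the peak itself. Each is the whole peak of 143 bases in lower case, read 5′ to 3′ on the plus strand. Capitals mark matches, on either strand, to the CCAAT box (CCAAT, or ATTGG on the other strand), the GC box (GGGCGG or CCGCCC), the CRE (TGACGTCA), the ETS motif CCGGAAG and the NRF1 core TGCGCA. All of these are letter matches and not shown binding sites.
Opa3 (exon 1, GRCm39 chr7:18962624-18962766, plus strand): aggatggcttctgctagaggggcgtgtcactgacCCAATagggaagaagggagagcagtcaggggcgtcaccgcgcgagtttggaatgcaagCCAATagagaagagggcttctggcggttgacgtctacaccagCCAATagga
Gm6420 (exon 1, GRCm39 chr1:23295191-23295333, plus strand): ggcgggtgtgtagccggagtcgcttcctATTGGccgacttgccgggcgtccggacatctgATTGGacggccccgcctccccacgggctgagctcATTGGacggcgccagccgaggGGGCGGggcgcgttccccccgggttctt
4930556J02Rik (exon 4, GRCm39 chr14:61763569-61763711, plus strand): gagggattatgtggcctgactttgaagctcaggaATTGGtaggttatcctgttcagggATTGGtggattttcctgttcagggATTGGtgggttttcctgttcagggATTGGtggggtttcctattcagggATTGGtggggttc
Angptl6 (exon 2, GRCm39 chr9:20789461-20789603, plus strand): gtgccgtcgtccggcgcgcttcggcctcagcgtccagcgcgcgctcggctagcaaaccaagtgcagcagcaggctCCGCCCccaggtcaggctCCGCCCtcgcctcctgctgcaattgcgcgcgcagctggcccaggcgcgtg
Prrg2 (TTS, GRCm39 chr7:44703700-44703842, plus strand): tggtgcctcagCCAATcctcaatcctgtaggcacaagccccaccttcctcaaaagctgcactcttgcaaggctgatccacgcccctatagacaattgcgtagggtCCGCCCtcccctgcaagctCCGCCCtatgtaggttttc
Gm15917 (TTS, GRCm39 chr10:81407506-81407648, plus strand): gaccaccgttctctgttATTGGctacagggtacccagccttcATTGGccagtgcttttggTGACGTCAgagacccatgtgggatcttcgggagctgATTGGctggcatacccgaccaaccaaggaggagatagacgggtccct
Pacsin1 (TTS, GRCm39 chr17:27927079-27927221, plus strand): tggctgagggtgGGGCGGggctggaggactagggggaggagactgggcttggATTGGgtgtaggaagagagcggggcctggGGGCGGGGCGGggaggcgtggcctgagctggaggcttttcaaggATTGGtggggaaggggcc
Or5d38 (TTS, GRCm39 chr2:87953339-87953481, plus strand): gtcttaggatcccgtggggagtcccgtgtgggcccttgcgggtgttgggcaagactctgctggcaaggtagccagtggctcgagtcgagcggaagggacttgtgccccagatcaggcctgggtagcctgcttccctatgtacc

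The first comparison was how often each antibody's intervals fell in exons or at transcript ends. These classes held 392 of 7861 peaks in TAF4b replicate 1 (4.99%, 95% Wilson interval 4.53 to 5.49) and 16 of 848 in TAF4b replicate 2 (1.89%, 1.16 to 3.04). They held 8744 of 64891 regions in H3K4me3 replicate 1 (13.5%) and 333 of 1730 in H3K4me3 replicate 2 (19.2%). Both TAF4b libraries were below both H3K4me3 libraries. The means were 3.44% ± 2.19 for TAF4b and 16.4% ± 4.08 for H3K4me3 (SD, n = 2 each), a difference of -12.9 percentage points. An exact two-sided permutation test over the 4 libraries gave p = 0.33, the smallest value that 2 libraries against 2 allow. Among intervals over 1000 bp from a TSS the groups overlapped: the shares were 11.7% and 8.64% in the TAF4b replicates and 10.1% and 33.4% in the H3K4me3 replicates (difference -11.6 points, exact two-sided permutation p = 0.667). The read depth of the libraries is unknown, and the number of intervals called limits the precision. The intervals cover counting error only.

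**Figure D1:**
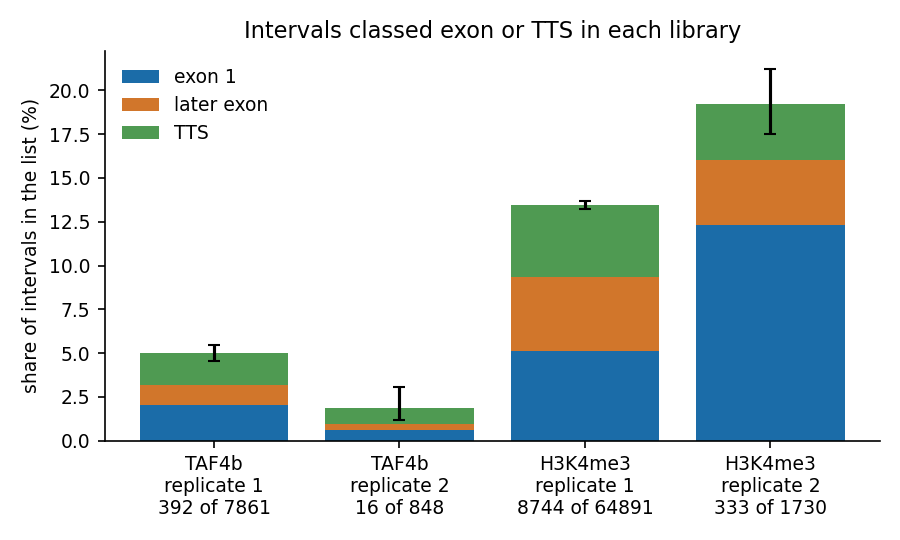
Stacked share of each list's intervals in the classes exon 1, later exon and TTS (vertical axis, percent) for the 4 libraries on the horizontal axis, with the 95% Wilson interval of the summed share as error bar. The summed shares are 4.99% and 1.89% in the TAF4b libraries and 13.5% and 19.2% in the H3K4me3 libraries.

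Peaks in first exons lay close to start sites. A first exon begins at a start site, so that being downstream of and near one is in part how they were chosen, and no test was made. Their median signed distance from the nearest TSS was 320 bp downstream (quartiles 200 and 550), against -51 bp, on the upstream side, for promoter peaks. Of the 161, 159 (98.8%) were downstream of that TSS by the deposited distance, and 141 (87.6%, 81.6 to 91.8) were within 1000 bp of it. The distances ran from -1971 to 3266 bp, and none exceeded 5000 bp. For 62 of the 161 the named transcript had a single exon, so that its first exon was also its last. The median length of the exon was 817 bp, and 142 of 158 matched peaks lay wholly inside it. Of the 158, 62 were over 5′ untranslated sequence of the named transcript, 45 over coding sequence, 46 over noncoding transcripts and 5 over 3′ untranslated sequence.

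The highest score among the exon and transcript-end peaks belonged to the first exon of Slc39a10, which encodes a zinc importer of the ZIP family. The score is the authors' peak value, used here only to rank peaks within 1 list. This peak (chr1:46892677-46892819) scored 52.1, rank 31 of the 7861, and was centred 458 bp downstream of the TSS. The peak printed above for Opa3, which encodes a mitochondrial membrane protein, scored 42.7 at 387 bp from its TSS. The next in first exons were in Ensa, encoding an inhibitor of protein phosphatase 2A in mitosis, with a score of 36.2, and in Gm6420, a gene model of uncertain coding status, with 34.2. Csrnp2, encoding a nuclear protein that can activate transcription, had a peak of score 32.8 only 114 bp downstream of its TSS. The sixth by score (29.8, chr7:30021773-30021915) named a transcript that matched no gene in the annotation. These 6 distances ran from 114 to 679 bp.

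Peaks in later exons lay farther from start sites than those in first exons. The median of their absolute distances was 4346 bp, against 324 bp for first exons and 59 bp for promoter peaks, and with GENCODE M39 starts it was 2337 bp. Of the 88, 17 (19.3%, 12.4 to 28.8) were within 1000 bp of a TSS, 34 were between 1000 and 5000 bp and 37 were farther. The signed distances ran from -61503 bp, upstream, to 42277 bp, downstream. The last exon of the named transcript held 57 of the 88 (64.8%), and exon 2 held 35. Of the 86 whose transcript was matched, 43 were over coding sequence, 24 over noncoding transcripts, 14 over 3′ untranslated and 5 over 5′ untranslated sequence.

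The later-exon peak with the highest score, 30.8, was in exon 4 of 4 of the long noncoding RNA gene 4930556J02Rik. Its deposited signed distance was -17536 bp, upstream of the nearest TSS, while in the larger GENCODE M39 annotation it was -812 bp, to the noncoding gene Gm62504. Its printed sequence holds 5 copies of ATTGG at a regular spacing of 24 bp. Angptl6, which encodes a secreted angiopoietin-like protein, had a peak of score 29.3 in exon 2 of 6, 1491 bp into the gene. Rtn2, encoding a reticulon of the endoplasmic reticulum, had one of score 22.3 in its last exon, 4783 bp from a TSS. Chchd10, encoding a mitochondrial protein, had a peak of score 21.8 that was 261 bp from the deposited TSS and 1 bp from a TSS in GENCODE M39. The peak in exon 13 of 14 of Cacnb1, encoding a calcium channel subunit, scored 20.8 at 7280 bp. That in the 4422 bp last exon of Zfp444, encoding a zinc finger protein, scored 20.3 at 6118 bp.

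Peaks classed TTS were spread over a wide range of distances from start sites. The class itself takes in the stretch just past a transcript end, here up to 977 bp past it, so the position is part of how they were chosen. The centre was beyond the end in 125 of 142 matched peaks, and over all 142 the median position was 405 bp past it (quartiles 187 and 672). The median of the absolute distances to the nearest TSS was 1825 bp (1157 bp with GENCODE M39 starts), and 42 of 143 (29.4%, 22.5 to 37.3) were within 1000 bp. For 98 of 140 (70.0%) that TSS belonged to the same gene. The share varied with transcript length. Where the named transcript was under 1000 bp long, 17 of 27 peaks were within 1000 bp of a TSS, and where it was longer, 25 of 115 were.

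The top transcript-end peak lay 206 bp past the end of a transcript of Prrg2, which encodes a transmembrane protein with a Gla domain. It scored 43.7 and was 533 bp downstream of another Prrg2 TSS. The Camta2 peak (chr11:70559686-70559828, score 35.2) lay 535 bp past a transcript of Camta2, encoding a calmodulin-binding transcription activator, and 287 bp into the neighbouring gene Spag7. The Ppp1r10 peak (chr17:36229946-36230088, score 29.3) was 767 bp past a transcript of Ppp1r10, encoding a nuclear subunit of protein phosphatase 1. Its deposited distance was 1236 bp, to the microRNA gene Mir1894, whereas in GENCODE M39 it was -37 bp, just upstream of a Ppp1r10 start. The printed Gm15917 peak, also of score 29.3, was 869 bp past the end of a transcript of that noncoding gene and at a signed distance of -2818 bp, upstream of Tle2. Pth2, encoding a neuropeptide, Pacsin1, encoding a membrane-bending protein of endocytosis, and Or5d38, encoding an olfactory receptor, had peaks of score 27.8, 27.3 and 24.3 at 1214, 1642 and 1927 bp.

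**Figure D2:**
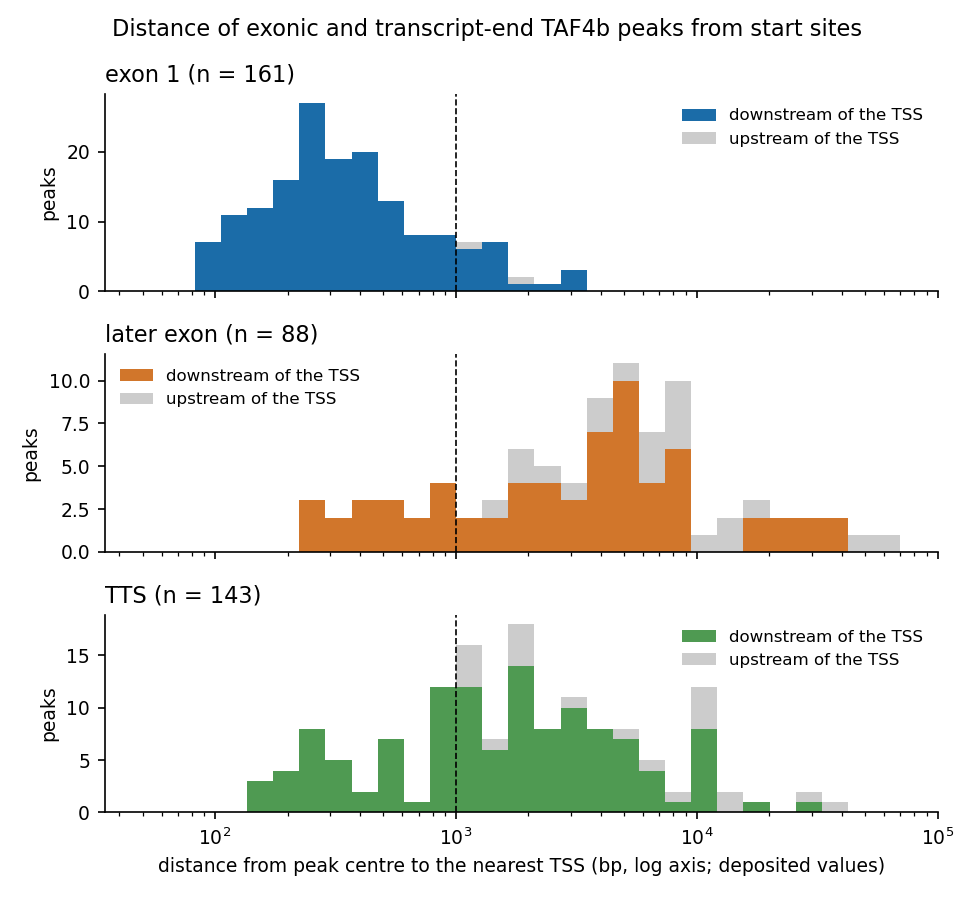
Number of TAF4b replicate 1 peaks (vertical axis) by absolute deposited distance to the nearest TSS (horizontal axis, bp, log scale), in a panel for each class, with peaks upstream of the TSS in grey and a dashed line at 1000 bp. Left of that line lie 141 of 161 exon 1, 17 of 88 later-exon and 42 of 143 TTS peaks.

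A denser set of transcripts placed a TSS near more of the peaks. By the deposited distances, 200 of 392 (51.0%, 46.1 to 55.9) were within 1000 bp of a TSS, and by GENCODE M39 240 (61.2%, 56.3 to 65.9) were. Over all peaks of the list the shares were 79.0% and 83.1%. Of the 192 beyond 1000 bp by the deposited distance, 43 (22.4%) came within it, beside 332 of 1648 (20.1%) for all peaks of the list beyond 1000 bp. The class that moved least was exon 1, from 87.6% to 88.2%. Later exons moved from 19.3% to 36.4%, and transcript ends from 29.4% to 46.2%. The direction also changed for some. Of the 142 first-exon peaks within 1000 bp of a GENCODE M39 start, 33 (23.2%, 17.1 to 30.8) lay upstream of it. Among them was that of Csrnp2, at -94 bp from a Csrnp2 start. The peaks of Gm6420 (-65 bp) and Opa3 (-119 bp) were upstream of other genes, the noncoding Gm53541 and Gm57235. From the nearest Opa3 start the Opa3 peak was still 387 bp downstream. The smallest absolute deposited distance among the 392 was 101 bp. In GENCODE M39, 70 of the 392 (17.9%) had a start within 100 bp, beside 66.8% of all peaks. Those all-peak shares are made up mostly of promoter peaks, whose class is set by nearness to a start. The smallest distance and the low share within 100 bp are thus in part how the 392 were chosen.

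Scores of these peaks were lower than those of promoter peaks in the same list. The median was 10.4 (quartiles 8.44 and 14.4) for the 392 peaks, against 16.9 (11.9 and 24.3) for promoter peaks, a ratio of 0.615. Intron peaks (quartiles 8.44 and 14.4) and intergenic peaks (8.93 and 13.4) had the same median of 10.4. The lower score was thus shared by these other classes outside promoters. By class the medians were 9.93 for first exons, 10.4 for later exons and 10.9 for transcript ends. The share at or above the median of the whole list was 24.0% (94 of 392), beside 61.6% of promoter peaks. It was 18% in first exons, 23.9% in later exons and 30.8% at transcript ends, and the Wilson intervals of the first (12.8 to 24.7) and the last (23.8 to 38.8) overlapped. Peaks of 1 library are not replicates, so no test was made. Replicate 2 had 16 such peaks, with a median score 1.13 times that of its promoter peaks, so they did not score lower there.

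**Figure D3:**
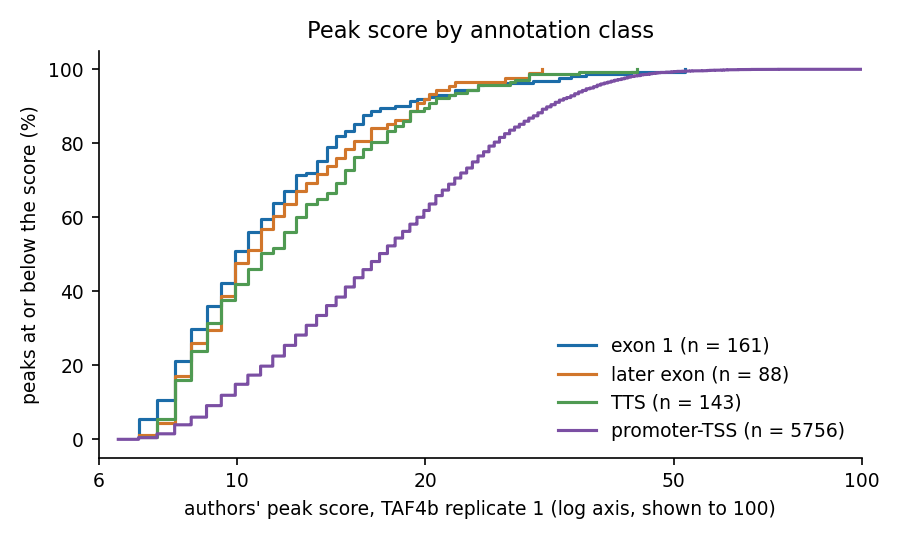
Cumulative share of TAF4b replicate 1 peaks (vertical axis, percent) at or below each score (horizontal axis, the authors' score, log scale, shown to 100), with a line for each class. The 3 exonic and transcript-end lines lie left of the promoter line over most of the range, and the medians are 9.93 (exon 1), 10.4 (later exon), 10.9 (TTS) and 16.9 (promoter-TSS).

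In replicate 1, most of the exonic and transcript-end peaks lay in H3K4me3 regions, about as often as TAF4b peaks at large. Of the 392, 330 (84.2%, 80.2 to 87.5) overlapped a region of H3K4me3 replicate 1 by at least 1 bp, and the background over all 7861 peaks was 84.1%. The shares were 87.6% (141 of 161) in first exons, 80.7% (71 of 88, 71.2 to 87.6) in later exons and 82.5% (118 of 143, 75.5 to 87.9) at transcript ends. Of the 392, 316 lay wholly inside a region. Beyond 1000 bp from a TSS, 156 of 192 (81.2%, 75.1 to 86.1) overlapped, against 1246 of 1648 (75.6%) for all peaks that far out. Beyond 5000 bp the shares were 30 of 37 (81.1%) for later exons and 27 of 30 for transcript ends, against 874 of 1167 (74.9%) for all. In the far smaller H3K4me3 replicate 2 list, 21 of 392 (5.36%) overlapped, beside a background of 6.92%. In TAF4b replicate 2 the overlap with H3K4me3 replicate 1 was lower than in that list at large: 9 of the 16 exonic and transcript-end peaks (56.2%, 33.2 to 76.9) overlapped, beside a background of 89.0% (755 of 848). The 7 without overlap included peaks at a mitochondrial gene, a ribosomal RNA-related gene and a U2 small nuclear RNA gene. Such sequences have further copies, so the place of those peaks is uncertain. The others were peaks of Lars2, Figla and Gm74511 and a peak with no matched gene. Whether the lower share holds without the peaks of uncertain place was not tested.

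**Figure D4:**
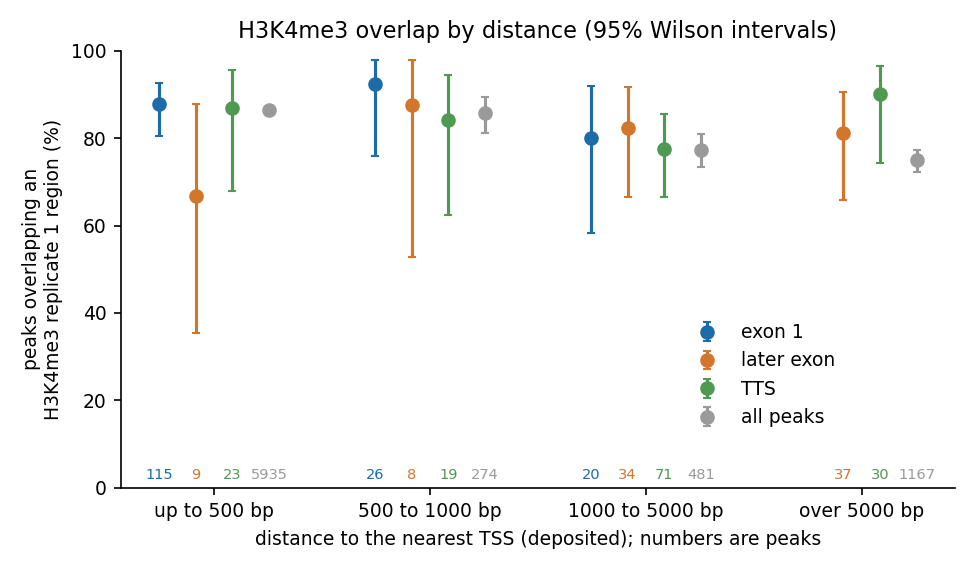
Share of TAF4b replicate 1 peaks overlapping an H3K4me3 replicate 1 region (vertical axis, percent, points with 95% Wilson bars) by distance from the nearest TSS (horizontal axis, bins in bp) and class, with the number of peaks in each bin along the foot. Beyond 5000 bp the shares are 81.1% for later exons, 90% for TTS and 74.9% for all peaks, and no exon 1 peak lies there.

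The H3K4me3 regions under these peaks were centred within 1000 bp of a TSS in 184 of 330 cases (55.8%, 50.4 to 61.0). That share was 87.2% for first exons, 21.1% for later exons and 39% for transcript ends. A region carries the class of its own centre, and 65 of the 330 (19.7%, 15.8 to 24.3) were classed promoter-TSS, against 82.2% for those under promoter peaks. By class this was 31.9%, 4.23% and 14.4%. The regions were not small. Their median width was 1416 bp and their median score 101, against 1525 bp and 98.4 under promoter peaks and 779 bp and 46.2 over the whole H3K4me3 list. The regions under Opa3 (score 268.3), Ensa (250.4), Camta2 (245.9) and Ppp1r10 (190.8) were high among them, and those under Cacnb1 (47.7) and Or5d38 (35.8) were low. Where no region overlapped, the nearest was at a median of 286 bp for the 20 first-exon peaks, 5092 bp for the 17 later-exon peaks and 4602 bp for the 25 transcript-end peaks.

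Few of the peaks were called in both TAF4b libraries. Of the 392, 8 (2.04%, 1.04 to 3.97) overlapped a peak of TAF4b replicate 2, beside a background of 8.37%. Promoter peaks made up 608 of the 658 overlapping peaks in that background, and 10.6% of the 5756 promoter peaks overlapped. The 8 were 2 in first exons, 2 in later exons and 4 at transcript ends. All 8 scored at or above the median of replicate 1, where they made up 8 of 94 (8.51%), and 645 of 4006 peaks of any class in that score range (16.1%) overlapped. Of those 645, 597 were promoter peaks. Both backgrounds thus mostly describe promoters and do not show a low share to be particular to exonic and transcript-end peaks. The scales of the 2 lists are not stated to be comparable. In replicate 1 and replicate 2 the scores were 52.1 and 76.9 at Slc39a10, 43.7 and 101.2 at Prrg2, 30.8 and 44.5 at 4930556J02Rik. They were 29.3 and 68.8 at both Ppp1r10 and Gm15917. The other 3 were Taf4b (19.4 and 178.1), and, chosen after their values were seen, Rap2b, encoding a small GTPase (19.4 and 56.7), and Rnu2-10, a U2 small nuclear RNA gene (17.9 and 44.5). Seen from replicate 2, 7 of its 16 exonic and transcript-end peaks (43.8%, 23.1 to 66.8) overlapped a replicate 1 peak, beside a background of 77.6% (658 of 848). U2 genes have near-identical copies, so the place of the Rnu2-10 peak is uncertain.

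One of these peaks lay inside Taf4b, the gene of the protein profiled. It was in exon 11 of 15 on chromosome 18 (chr18:14968791-14968933), with a score of 19.4 in replicate 1, rank 2480 of 7861. In replicate 2 the overlapping peak spanned 14968726 to 14968914, scored 178.1 at rank 21 of 848, and was classed as intron. It had the highest replicate 2 score of the 8. The nearest annotated TSS, 5137 bp away, is that of the pseudogene Gm21055, and no H3K4me3 replicate 1 region lay within 51305 bp. Its GC content was 40.0%, against a median of 61.5% for later-exon peaks. A second peak lay in exon 1 of Taf4b (chr18:14916827-14916969), 596 bp downstream of the TSS, with a score of 12.9, and overlapped an H3K4me3 region of score 53.7 over 123 of its 143 bases. That one overlapped no replicate 2 peak. Whether the exon 11 signal depends on the TAF4b antibody was not tested, as the IgG libraries were not analysed here.

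Base composition varied by class. In 200 bp around the peak centre the median GC content was 67.5% in first exons, 61.5% in later exons and 58.0% at transcript ends, beside 64.5% at promoter peaks. The median ratio of observed to expected CpG was 0.840, 0.664 and 0.544, beside 0.840 at promoter peaks. First exons were at or above promoter peaks on both measures, and transcript ends were below. Intron peaks had 57.5% and 0.511, and intergenic peaks 54.5% and 0.438, so transcript ends were close to intron peaks.

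Promoter motifs were searched by their letters, on both strands, in the same windows. The GC box GGGCGG was in 39.5% of the 392, against 56.3% of all 7861 peaks, and the CCAAT box in 32.1% against 44.1%. Of those 7861 peaks, 5756 were promoter peaks, so the all-peak shares mostly describe promoters. By class the GC box was in 45.3% of first exons, 31.8% of later exons and 37.8% of transcript ends. For the CCAAT box these shares were 24.2%, 30.7% and 42.0%. For the CCAAT box the intervals of first exons (18.3 to 31.4) and transcript ends (34.2 to 50.2) did not overlap, and for the GC box those of the 3 classes did. The ETS motif CCGGAAG was in 6.89% (all peaks 14.2%), the NRF1 core TGCGCA in 13.5% (15.2%), and the CRE TGACGTCA in 1.53% (4.55%). The TATA box TATAAA was in 4.08% (3.21%), the YY1 core AAGATGG in 2.3% (5.11%) and the GFY core ACTACAA in 1.79% (4.05%). A GC-rich motif is met more often in GC-rich DNA, and these shares are not adjusted for composition.

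CCAAT was found more often among high-scoring peaks, as a description of 1 list with no test. It was in 56 of the 94 members scoring at or above the list's median (59.6%, 49.5 to 68.9) and in 70 of the 298 below it (23.5%, 19.0 to 28.6). The same split gave 58.6% and 16.7% in first exons, 47.6% and 25.4% in later exons, 65.9% and 31.3% at transcript ends, and 55.0% and 32.8% over all peaks. At least 2 copies were in 34 of 94 (36.2%) and 20 of 298 (6.71%). The GC box was in 47 of 94 and 108 of 298 (36.2%), and in later exons in 28.6% and 32.8%. Within the 143 printed bases, a shorter stretch than the 200 bp windows counted so far, Opa3, Gm6420 and Gm15917 hold 3 copies each and Angptl6 and Or5d38 hold none. In its 200 bp window Or5d38 has 1 copy, and Angptl6 has none.

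**Figure D5:**
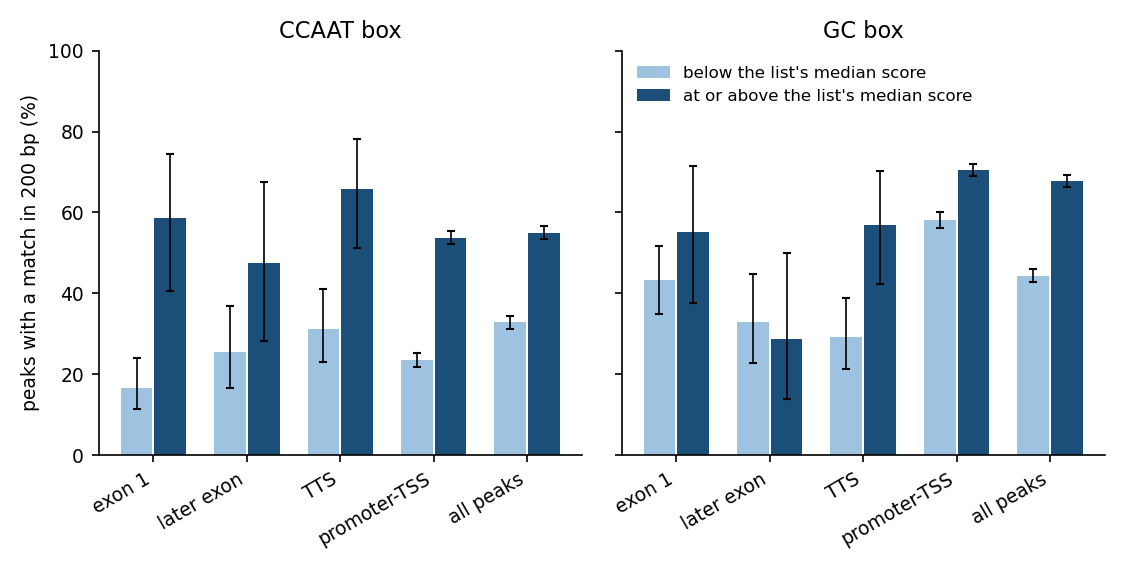
Share of peaks holding CCAAT or the GC box (vertical axes, percent, with 95% Wilson bars) for TAF4b replicate 1 peaks scoring below the median of the list and at or above it, by class (horizontal axis). For CCAAT the higher-scoring share exceeds the lower-scoring one in each class, 65.9% against 31.3% at transcript ends, and for the GC box in later exons it does not.

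A host gene was matched for 386 of the 392 peaks, and 302 of these (78.2%) were in protein-coding genes, 47 in long noncoding RNA genes and 22 in pseudogenes. The protein-coding share was 83.9% (616 of 734) for intron peaks and 91.8% (5244 of 5711) for promoter peaks. By class the protein-coding count was 135 of 158, 72 of 86 and 95 of 142. A promoter-TSS peak was also listed for the host gene of 82 of 386 peaks (21.2%, 17.5 to 25.6): 20.9% in first exons, 16.3% in later exons and 24.6% at transcript ends. For intron peaks it was 183 of 734 (24.9%, 21.9 to 28.2). A promoter peak was listed for 5391 of all 78289 annotated genes (6.89%), and for 4943 of the 21770 that are protein-coding (22.7%). The peaks fell on 20 chromosomes, 5 of them on X and none on Y. There were 377 distinct host genes, and 9 held 2 peaks each. The 9, chosen after their values were seen, were Taf4b, Rap2b, Cyp26c1, D930019O06Rik, E030044B06Rik, Fjx1, Gas2l1, Suox and Nanos1. Nanos1, which encodes an RNA-binding translational repressor, had both peaks in its single exon, with scores of 13.4 and 7.94 at 300 and 799 bp from the TSS.

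Gene lists were read against the annotation as a whole, in which 377 of 78289 genes (0.482%), or 295 of 21770 protein-coding genes (1.36%), were hosts. The shares of genes with a promoter peak, 6.89% and 22.7%, are the background for the promoter counts, and no test was made. Of 41 annotated germ cell genes listed, 20 had a TAF4b promoter peak and 1, Taf4b, had an exonic or transcript-end peak. Of 32 genes of somatic testis cells, 1 had a promoter peak and 1 had an exonic or transcript-end peak. The latter was the TTS peak of Sox8, a Sertoli cell transcription factor, with a score of 8.44. Among 21 genes of TFIID and related factors, 14 had a promoter peak and again only Taf4b an exonic one. The C2H2 zinc finger genes had 11 hosts among 517, of which 6 held exon 1, 2 later-exon and 3 TTS peaks, and 164 of the 517 had a promoter peak. Histone genes had 1 host (H1f3) among 116, and ribosomal protein genes 2 (Rpl41 and the pseudogene Rps2-ps10) among 409. Small nuclear and nucleolar RNA genes had 1, Rnu2-10, among 182, and 0 of 13 housekeeping genes found was a host while 7 had a promoter peak.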

How the data were processed

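CUT&RUN libraries of TAF4b and H3K4me3 (2 replicates each, grouped by the sample titles) were analysed from the interval lists that the authors deposited for each library. The submitters' processing notes name bcl2fastq 2.20, Trim Galore 0.5.0, FastQC 0.11.5, Bowtie2 2.3.0, SAMtools 1.9, HOMER 4.10 and the genome build GRCm39. Per the file headers, H3K4me3 regions were annotated with annotatePeaks against GRCm39 and Ensembl 103. The peak-calling settings and the scaling of the score are not given in the sources used here. The deposited score of each interval is the authors' value, and the class, position and distance to TSS were used as deposited. Read depth is unknown.

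The TAF4b headers name no build. Nearest-TSS transcripts were found in GENCODE M39 for 383 of 392 peaks, and 288 of these (75.2%) had the deposited distance within 1 bp and 350 (91.4%) within 100 bp. For replicate 2 the transcript was found for 15 of 16 and 14 agreed within 1 bp. GRCm39 coordinates were therefore used. Distances run from the peak centre. An overlap was counted from 1 shared bp, and shares carry 95% Wilson intervals. Motifs were counted in 200 bp windows. Python 3.11.15, pandas 2.3.3 and scipy 1.17.1 were used, and the functions were tested on simulated intervals.

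The members and lists were chosen with earlier results of these data known. Named peaks were the 6 highest-scoring in each class, the 5 highest beyond 1000 bp among later exons and TTS, the 5 with the highest overlapping replicate 2 score, and those in listed germ cell or TFIID genes. No gene held 3 or more peaks. One later-exon peak chosen this way is not reported here. Sequences were shown only for named peaks outside chromosome 18 and outside annotated untranslated regions. Alternatives covered the distance limit, the annotation, the overlap required, the score, the window and the replicate.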

Additional observations from a re-analysis of the deposited data

How the results depend on the processing

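With the replicate block the difference in exon or TTS share was again -12.9 points (exact sign-flip p = 0.500), and leaving out either replicate gave -17.4 to -8.49. The labels do not say that same-numbered libraries share cells, and 1 share per library gives no check of pairing. In the order all, exon 1, later exon and TTS, the share within 500 bp of a TSS was 37.5%, 71.4%, 10.2% and 16.1%. With GENCODE M39 starts the share within 1000 bp was 61.2% for all, 36.4% for later exons and 46.2% for TTS, and it was 40.9% for TTS peaks scoring at or above the median. The overlap with H3K4me3 replicate 2 was 5.36%, 8.07%, 4.55% and 2.80%. For the higher-scoring peaks the overlap with H3K4me3 replicate 1 was 91.5%, 93.1%, 90.5% and 90.9%. With the higher-scoring H3K4me3 regions alone it was 74.2% for all, 67.0% for later exons and 67.8% for TTS. With all H3K4me3 replicate 1 regions it was 80.0% for exon 1 peaks beyond 1000 bp. Taking the peaks of TAF4b replicate 2 instead, without replicate 1, gave 56.2%, 80.0%, 33.3% and 50%, beside 89.0% of all replicate 2 peaks, and score ratios to promoter peaks of 1.13, 1.07, 0.934 and 1.33, from 16 peaks. Overlap with TAF4b replicate 2 among higher-scoring peaks was 8.51%, 6.90%, 9.52% and 9.09%. Another peak within 1000 bp of a GENCODE M39 start of the host gene was found for 29.0% of all, 29.1% of exon 1 and 29.1% of later-exon peaks, and a promoter peak for 14.1% of all and 11.4% of TTS peaks with higher scores. Beyond 1000 bp the GC content was 58.0% for all and 60.8% for exon 1, and the CpG ratio 0.546 for all and 0.479 for TTS. Among intervals scoring at or above their list's median, the exon or TTS share of TAF4b replicate 1 was 2.35%. The 100 bp window lies inside the 200 bp one, so a motif share could only stay or fall. The 500 bp limit and the higher-scoring H3K4me3 regions alone could likewise only lower their shares. In 100 bp windows the motif shares of the 392 peaks were 24.7% for the GC box, 22.7% for the CCAAT box, 4.59% for ETS, 8.93% for NRF1, 1.53% for TATA, 0.765% for YY1 and 0.765% for GFY. Counting these, 33 values for single motifs and single libraries moved and 43 did not move beyond their interval or SD. The causes of the other shifts were not tested. The number of peaks called limits each class, most of all in replicate 2.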

Other observations

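TAF4b replicate 2 held 16 exonic or transcript-end peaks, 5 in first exons, 3 in later exons and 8 classed TTS. Of these, 7 overlapped a peak of replicate 1, beside 77.6% of all replicate 2 peaks, and 9 overlapped an H3K4me3 replicate 1 region, beside 89.0% of all replicate 2 peaks. The following genes were chosen after their values were seen. The highest score, 6902.3, was at a mitochondrial peak annotated to the end of the transfer RNA gene mt-Ts2 but centred 751 bp past it, 680 bp into mt-Nd5. It was followed by Rn18s-rs5, a ribosomal RNA-related gene (307.7), and Lars2, encoding mitochondrial leucyl-tRNA synthetase (251.0). Mitochondrial and ribosomal RNA sequences are present in many copies, so the place of that signal is uncertain. The mt-Ts2 and Rn18s-rs5 peaks are among those of the 16 that overlapped no H3K4me3 replicate 1 region. The Lars2 peak overlapped no replicate 1 peak, and the nearest H3K4me3 replicate 1 region was 15839 bp away. The germ cell transcription factor gene Figla had a score of 44.5, rank 729 of 848, where the lowest score was 40.5. Its peak overlapped no replicate 1 peak, and the nearest H3K4me3 replicate 1 region was 2680 bp away. Macf1, which encodes a cytoskeletal linker, had the same score, and Fgf11, encoding a growth factor family member, had 93.1.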
